A study of Mus musculus with 8 samples.

Results

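The comparison was that of the genotype label pooled over the diets, between livers labelled RORα LKO and livers labelled RORα f/f. It used all 8 of the 8 RNA-sequencing libraries of the series, 4 LKO-labelled against 4 f/f-labelled, with diet as a covariate. Both genotypes were male, on the C57BL/6 background, and homozygous for Rora alleles with loxP sites around exons 4 and 5. The LKO mice also carried Alb-Cre, a recombinase under the albumin promoter that acts in hepatocytes, so that the other cells of the liver kept Rora. From 8 weeks of age the mice were fed a control diet (CD) or a high-fat diet (HFD) with 60% of its energy from fat, for 10 weeks. Each of the 4 groups had 2 libraries, each pooled the livers of 2 mice, and the p-values measure the spread between such pools. The time of day at which the mice were killed was not given in the sources used here. The unit was FPKM, which scales the fragments of a gene by its transcript length and by the sequencing depth of the library. Of 38283 genes listed, 9839 had FPKM above 1 in all 8 libraries and were kept.

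RORα is an orphan nuclear receptor that binds ROR response elements, a hexamer AGGTCA preceded by an A/T-rich stretch. The repressors REV-ERBα and REV-ERBβ compete for the same elements, and this couples RORα to the circadian clock. In the clock, CLOCK and BMAL1 drive genes with E-boxes, among them the Per and Cry repressors, and through Dbp and related factors a wider set of output genes. In hepatocytes, RORα is known for its part in lipid, cholesterol and bile acid metabolism.

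The targeted gene, Rora (ENSMUSG00000032238, chr9:68653786-69388246, GRCm38), was examined first. In LKO-labelled livers Rora FPKM was 7.96 and 8.18 on CD and 7.30 and 8.02 on HFD, against 8.85 and 8.59 on CD and 7.56 and 7.86 on HFD in f/f-labelled livers. The genotypes were apart on CD by a small margin and overlapped on HFD. The pooled log2 difference was −0.04 (SE 0.06, adjusted p = 0.804, limma), and the exact two-sided permutation test over 70 arrangements of the libraries gave p = 0.4, where the smallest possible value was 0.0286. FPKM covers the whole gene, and exons 4 and 5 make up 538 of the 10878 bases (4.95%) of the transcript Rora-201, so that Rora FPKM neither supported nor contradicted the labels. The libraries are therefore named by their labels, and each direction below rests on them.

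The libraries were alike in depth and composition. Between 10587 and 10706 genes had FPKM above 1, and relative depth, read from the smallest FPKM steps of low genes, ranged from 0.831 to 1.14. Spearman correlations were 0.987 to 0.989 within a group, 0.98 to 0.986 between genotypes on the same diet, and 0.971 to 0.979 between diets within a genotype. The f/f-labelled CD replicate 2 stood apart, with 43.7% of its summed FPKM in 10 genes against 29.7% to 38.0% in the other libraries. Exact zeros occurred in abundant genes. Alb, which encodes albumin, was listed at 0 in 4 libraries (LKO-labelled CD replicate 1, both LKO-labelled HFD libraries and f/f-labelled HFD replicate 2) and at 29902 to 30888 FPKM in the other libraries. In all, 113 genes were listed at 0 in some library and above 10 FPKM in another. Few of them are abundant coding genes such as Alb, Serpina3k and Cfb. Many are genes of small RNAs, among them microRNAs, small nucleolar RNAs and mitochondrial tRNAs. Such genes were not kept, and nothing is read from their zeros. The other hepatocyte markers were all kept and none was called, where 0.335% of all kept genes were. Of these 9, 3 had a positive log2 difference (LKO-labelled minus f/f-labelled), and 1 had an unadjusted p under 0.05 (limma), lower. Their median was −0.14, beside −0.004 over all kept genes. Ttr, encoding transthyretin, lay between 3990 and 4540 FPKM in every library, and Cps1 at 455 to 700 in LKO-labelled and 596 to 793 in f/f-labelled libraries.

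Pooled over the diets, 33 of the 9839 kept genes differed between the genotype labels at an adjusted p under 0.05 (0.335%), and these are the called genes. In the LKO-labelled livers 21 rose (0.213% of kept genes) and 12 fell (0.122%). The differences were between 0.35 and 1.60 in absolute size on the normalized log2(FPKM + 1) scale. By mean deposited FPKM, LKO-labelled livers held 4.20 times the f/f-labelled level of Cidec and 0.336 times that of Lpin1. Cidec, a lipid droplet protein, rose most, and Lpin1, a phosphatidate phosphatase, fell most. All 33 changed in the same direction on both diets, with an unadjusted p under 0.05 on each. Over all kept genes 55.3% had equal signs on both diets, and 1308 had such a p on CD and 1045 on HFD. The 33 were picked by the pooled difference of the same libraries, so that this agreement is no separate test. In 24 of the 33, 15 higher and 9 lower, the 4 LKO-labelled libraries all lay on the same side of the 4 f/f-labelled libraries after normalization. Such separation was found for 513 kept genes (5.21%), of which 248 were higher (2.52%) and 265 lower (2.69%) in the LKO-labelled livers. The count of calls depended on single libraries. It was 21 without LKO-labelled HFD replicate 1, 16 without LKO-labelled HFD replicate 2, 6 without f/f-labelled CD replicate 1, 11 without f/f-labelled CD replicate 2, 1 (Lpin1) without f/f-labelled HFD replicate 1 and 5 without f/f-labelled HFD replicate 2. No called gene named here changed direction in any of these fits.

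**Figure D1:**
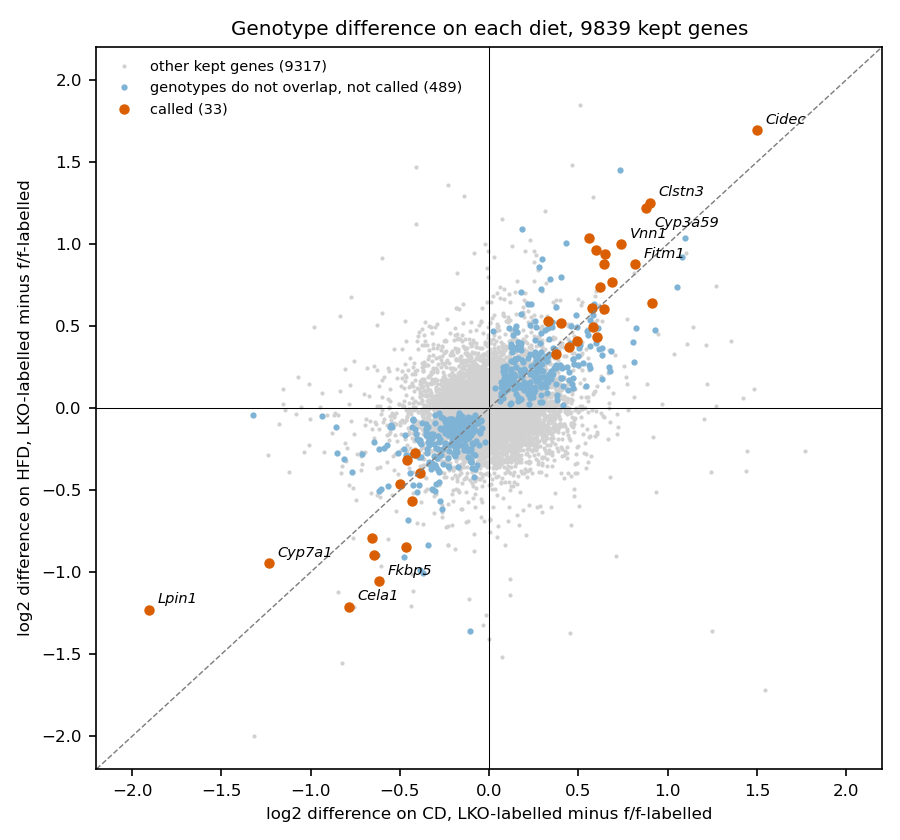
Log2 difference of LKO-labelled minus f/f-labelled livers on CD (x axis) and HFD (y axis), each point 1 of 9839 kept genes. The 33 called genes (orange) and the 489 other genes whose genotypes do not overlap (blue) lie in the quadrants of equal sign, and the dashed line marks equal differences. The axes leave out 2 genes, neither of them called.

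**Figure D2:**
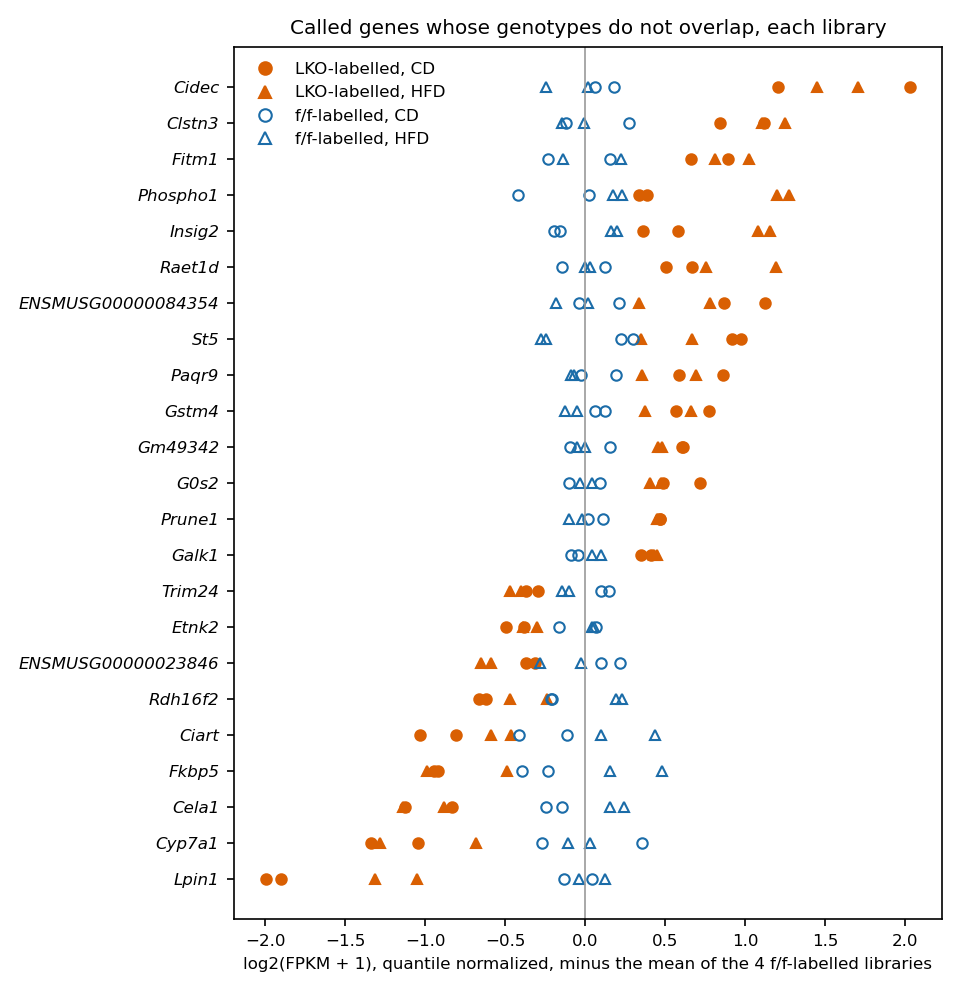
Called genes whose genotypes do not overlap (23 of the 24), with each library's normalized log2(FPKM + 1) relative to the mean of the 4 f/f-labelled libraries (x axis). Filled points are LKO-labelled, open points f/f-labelled, circles CD and triangles HFD. Cidec is at the top (pooled difference 1.60) and Lpin1 at the bottom (−1.57).

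Of the genes of lipid droplets and fatty acid uptake, Cidec, Fitm1 and G0s2 rose in the LKO-labelled livers. Of 24 kept members of the list, 3 were called, all higher, where 0.213% of all kept genes were called higher. A positive difference was found for 22 of the 24, against 4781 of all 9839 kept genes. Without adjustment, 14 had p under 0.05, all higher, where 7.06% of all kept genes were higher by that measure. The median log2 difference of the list was 0.25, beside −0.004 over all kept genes. In a bulk sample a change in RNA per cell and a change in the share of cells that hold it cannot be told apart.

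Cidec (ENSMUSG00000030278, chr6:113424634-113435760) encodes a protein of the lipid droplet surface that promotes droplet fusion and is a known PPARγ target in fatty liver. In LKO-labelled livers Cidec FPKM was 5.67 and 10.8 on CD and 8.15 and 6.83 on HFD, against 1.96 and 2.24 on CD and 1.41 and 1.87 on HFD in f/f-labelled livers. The lowest LKO-labelled library was well above the highest f/f-labelled library. The means were 7.86 ± 2.204 and 1.87 ± 0.34 FPKM (SD, n = 4), a pooled log2 difference of 1.60 (SE 0.17, adjusted p = 0.0147), with 1.498 on CD and 1.70 on HFD. Diet itself made no called difference to Cidec (log2 −0.14, HFD minus CD, adjusted p = 0.642). Cidec is also an adipocyte marker. Of the 12 adipocyte markers 6 were kept, 5 of these had a positive difference, and 3 had an unadjusted p under 0.05, all higher, with a median of 0.28. Besides Cidec these were Pparg, at 4.53 to 6.38 FPKM in LKO-labelled and 3.83 to 4.46 in f/f-labelled libraries (0.27, adjusted p = 0.198), and Car3 (0.42, adjusted p = 0.313). Of the markers not kept, Adipoq reached 0.0972 FPKM in LKO-labelled and 0.377 in f/f-labelled libraries, Plin1 0.0197 and 0.0537, and Cfd 5.45 and 1.87, while Lep was listed at 0 in the LKO-labelled libraries and Slc36a2 in all. The summed FPKM of the list, most of it Car3, was 1481 to 1966 in LKO-labelled and 971.1 to 1731 in f/f-labelled libraries, and its part in the Cidec result was not tested.

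Fitm1 encodes an endoplasmic reticulum protein that helps triglyceride partition into nascent droplets. In LKO-labelled livers Fitm1 FPKM was 39.5 and 34.3 on CD and 36.2 and 43.7 on HFD, against 23.8 and 17.8 on CD and 18.7 and 24.4 on HFD in f/f-labelled livers. The groups were clear of each other, with a log2 difference of 0.85 (SE 0.11, adjusted p = 0.0253). G0s2, an inhibitor of the triglyceride lipase ATGL, had FPKM of 228 and 277 on CD and 210.4 and 206 on HFD in LKO-labelled livers, against 175 and 151 on CD and 158 and 153 on HFD. It was the most abundant of the 3 per length, and its difference was 0.52 (SE 0.07, adjusted p = 0.0336). Mgll, the monoacylglycerol lipase (0.23, adjusted p = 0.186), and Lipc, hepatic lipase (0.12, adjusted p = 0.343), were also separated and did not pass the test.

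**Figure D3:**
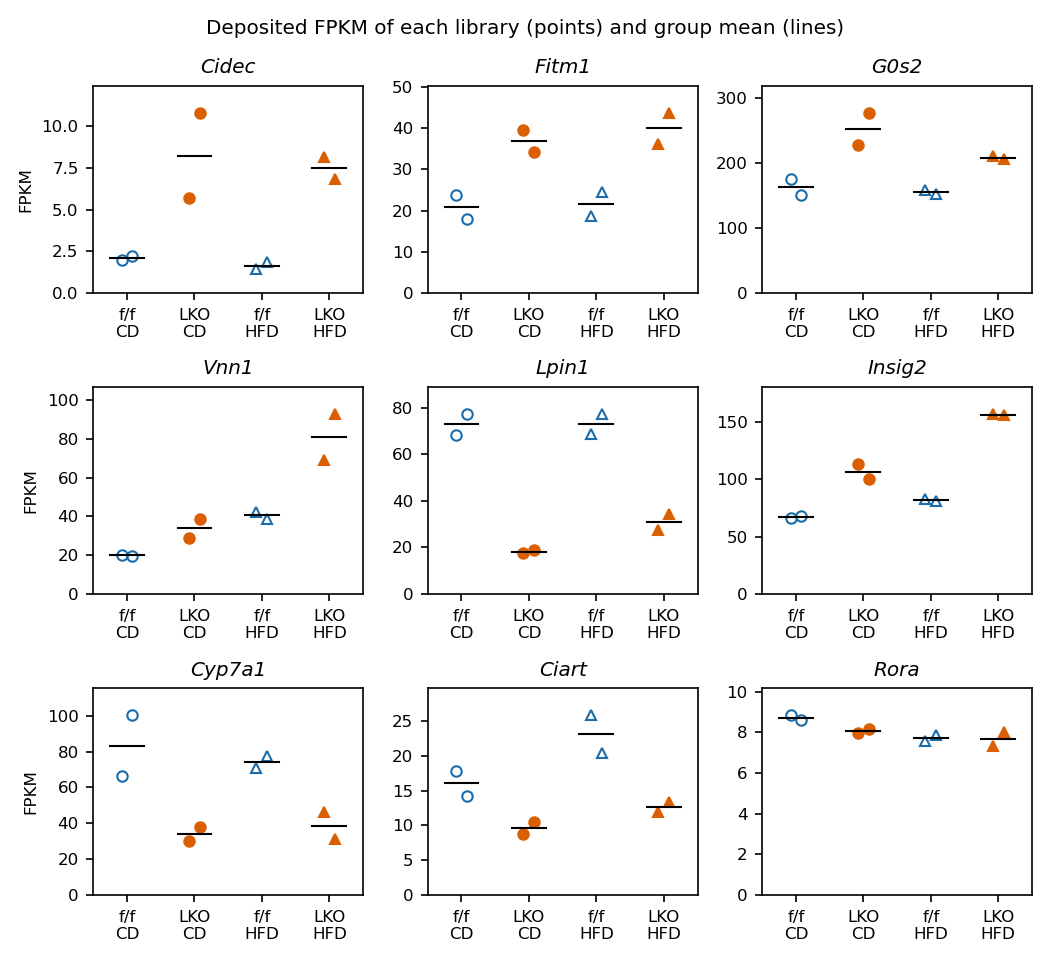
Deposited FPKM (y axis, from 0) of 9 genes in each library (points) with group means (lines), by genotype label and diet (x axis). Lpin1 in LKO-labelled livers was 17.5 to 34.2 against 68.5 to 77.4 in f/f-labelled livers, while Rora stayed between 7.30 and 8.85 throughout.

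Among genes of fatty acid oxidation and other PPARα targets, Vnn1 and Crat rose. All 38 members of that list were kept, 2 were called, both higher, and 33 had a positive difference. Of these 38, 17 had an unadjusted p under 0.05, all higher, and the median difference was 0.17. Over all kept genes 0.213% were called higher and 7.06% were higher at an unadjusted p under 0.05. Vnn1 encodes pantetheinase, which recycles a coenzyme A precursor, and Crat encodes carnitine acetyltransferase. Vnn1 FPKM was 28.9 and 38.9 on CD and 69.2 and 92.9 on HFD in LKO-labelled livers, against 20.3 and 19.5 on CD and 42.5 and 38.7 on HFD in f/f-labelled livers. The genotypes overlapped across the diets and not within either, since Vnn1 was also higher on HFD (log2 1.16, adjusted p = 0.00073). Its genotype difference was 0.87 (SE 0.11, adjusted p = 0.024), and that of Crat 0.76 (SE 0.12, adjusted p = 0.0459), where f/f-labelled livers held 16.9 to 24.3 FPKM and LKO-labelled livers 22.6 to 40.8. Fgf21, a hormone secreted by the liver under PPARα, was 3.05 to 5.14 FPKM in the LKO-labelled libraries and 1.32 to 2.54 in the f/f-labelled libraries. The groups did not overlap, and the difference of 0.89 (SE 0.16) had an adjusted p of 0.0587. Cpt2, the inner carnitine palmitoyltransferase, was separated by a small margin (0.18, adjusted p = 0.264). Of 38 kept subunits of oxidative phosphorylation none was called or separated, none had an unadjusted p under 0.05, and the median was 0.02. Over all kept genes 0.335% were called and 5.21% separated.

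Lpin1 (ENSMUSG00000020593, chr12:16535669-16610966) had the smallest adjusted p of all kept genes. Its product, lipin 1, makes diacylglycerol for triglyceride and also acts in the nucleus as a coactivator of PPARα. In LKO-labelled livers Lpin1 FPKM was 17.5 and 18.8 on CD and 27.6 and 34.2 on HFD, against 68.5 and 77.3 on CD and 68.8 and 77.4 on HFD in f/f-labelled livers. The highest LKO-labelled library, on HFD, was far below the lowest f/f-labelled library. The means were 24.5 ± 7.87 and 73.0 ± 5.02 FPKM (SD, n = 4), and the log2 difference was −1.57 (SE 0.14, adjusted p = 0.00934). It passed the test on CD alone (−1.91, adjusted p = 0.0014) and on HFD alone (−1.23, adjusted p = 0.0208). In 16 alternative fits the difference stayed between −1.69 and −1.46. Of 25 kept genes of fatty acid and triglyceride synthesis, Lpin1 was the one called, where 0.335% of all kept genes were called. Agpat2 (0.25, adjusted p = 0.126) and Gpam (0.20, adjusted p = 0.238), acyltransferases of the steps before lipin, were separated in the other direction, and the list's median was 0.06.

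The promoter of Lpin1 in RefSeq (chr12:16610917-16611216, GRCm38.p6, minus strand, 250 bases before and 50 after the start) is shown because Lpin1 fell most. It holds 1 match, in capitals, to the nuclear receptor hexamer AGGTCA, searched on both strands, at −74 from the start.
Lpin1: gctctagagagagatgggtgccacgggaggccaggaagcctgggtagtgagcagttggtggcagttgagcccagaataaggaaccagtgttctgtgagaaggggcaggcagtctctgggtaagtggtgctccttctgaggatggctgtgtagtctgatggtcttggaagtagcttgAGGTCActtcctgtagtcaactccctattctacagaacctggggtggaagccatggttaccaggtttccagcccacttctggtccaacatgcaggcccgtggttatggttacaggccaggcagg
Of 32851 RefSeq windows of this length, 16.3% held the hexamer, and 2.61% held it preceded by T (TAGGTCA), which contains the shorter motif. By windows the share was 13.3% for kept genes, 15.9% for separated higher genes and 12.4% for separated lower genes. A promoter was found for 22 of the 33 called genes, and 8 of these (36.4%) held the hexamer in some window, against 18.1% of all RefSeq genes and 15.5% of kept genes. By genes the share was 19.6% for separated higher and 14.2% for separated lower genes, and by windows it was 29% for called genes. With the preceding T, 1 of the 22 called genes (4.55%) held it, against 2.53% of kept genes. The match in the Lpin1 window is not preceded by T.

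In cholesterol synthesis and its control by SREBP, 1 of 25 kept genes was called, where 0.335% of all kept genes were. Insig2 (ENSMUSG00000003721, chr1:121304353-121332589) encodes a protein that holds the SCAP and SREBP complex in the endoplasmic reticulum. In LKO-labelled livers Insig2 FPKM was 113 and 99.97 on CD and 157 and 156 on HFD, against 66.5 and 67.9 on CD and 82.4 and 81.0 on HFD in f/f-labelled livers. Replicates were close to each other in all 4 groups, the genotypes did not overlap, and both genotypes were higher on HFD. The genotype difference was 0.79 (SE 0.08, adjusted p = 0.0113), 0.65 on CD and 0.94 on HFD, and the diet difference 0.50 (adjusted p = 0.00432). Scap was separated, at 29.6 to 42.6 FPKM against 24.8 to 27.4 (0.41, adjusted p = 0.104), as was Hmgcs1, which makes the precursor of mevalonate (0.64, adjusted p = 0.263). For Hmgcs1, 1 LKO-labelled HFD library at 97.4 FPKM stood above the other 7 at 33.3 to 53.7, and the lowest LKO-labelled value (44.9) was under the highest f/f-labelled value (45.1) before normalization. The list had a median of 0.08, and 17 of 25 differences were positive, against −0.004 and 4781 of 9839 over all kept genes. Separated and higher were 3 of the 25, where 2.52% of all kept genes were.

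Cyp7a1 (ENSMUSG00000028240, chr4:6265612-6275633), the rate-limiting enzyme of bile acid synthesis, was the called gene among 24 kept genes of bile acid synthesis and transport. Over all kept genes 0.335% were called. In LKO-labelled livers Cyp7a1 FPKM was 30.3 and 37.8 on CD and 46.2 and 31.1 on HFD, against 66.3 and 100.4 on CD and 70.7 and 77.6 on HFD in f/f-labelled livers. Every LKO-labelled library lay below every f/f-labelled library on both diets. The difference was −1.09 (SE 0.17, adjusted p = 0.0459), and diet made none that passed the test (0.06, adjusted p = 0.846). The canalicular exporters Abcb4, for phospholipid (0.31, adjusted p = 0.17), and Abcb11, for bile salts (0.20, adjusted p = 0.272), were separated and higher. The list's median was 0.07.

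Among core clock repressors, Ciart fell in the LKO-labelled livers. Of 9 kept members, 0 had a positive difference, and the median was −0.37. Of these members, 1 was called (Ciart), 3 were separated (Ciart, Per2 and Nr1d2), and 5 had an unadjusted p under 0.05. Of all kept genes 0.122%, 2.69% and 6.77% were lower by these measures. Ciart (ENSMUSG00000038550, chr3:95878503-95882251), also called Chrono, represses CLOCK and BMAL1. In LKO-labelled livers Ciart FPKM was 8.82 and 10.5 on CD and 11.9 and 13.4 on HFD, against 17.8 and 14.3 on CD and 25.9 and 20.4 on HFD in f/f-labelled livers. The closest libraries of the 2 genotypes were 13.4 and 14.3, on different diets. The difference was −0.72 (SE 0.10, adjusted p = 0.0321), and Ciart was higher on HFD in both genotypes (0.46, adjusted p = 0.0198).

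Per2, a repressor in complex with the cryptochromes, was 3.51 to 5.87 FPKM in LKO-labelled and 5.83 to 6.92 in f/f-labelled libraries (−0.42, adjusted p = 0.0892). By deposited FPKM these ranges touched, and they were apart only after normalization. Per1 (−0.41, adjusted p = 0.147) and Cry1 (−0.43, adjusted p = 0.126) were lower on both diets with overlapping libraries. Nr1d2, which encodes REV-ERBβ, was separated at −0.23 (adjusted p = 0.189). Nr1d1, which encodes REV-ERBα, differed by −0.02 (SE 0.11, adjusted p = 0.956) and was far higher on HFD in both genotypes, 48.3 to 65.6 FPKM against 23.7 to 28.1 on CD. Nr1d1 (−0.17 on CD and 0.13 on HFD), Per3 (0.05 and −0.79) and Bhlhe40 did not keep a direction across the diets. Bhlhe40 was 0.50 higher on CD and 0.60 lower on HFD on the log2 scale.

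Among clock activators, Clock itself was separated and higher, at 6.74 to 8.32 FPKM against 5.21 to 6.67 (0.29, adjusted p = 0.2). Arntl, which encodes BMAL1 and is a textbook target of ROR and REV-ERB, was not kept. Its FPKM lay between 0.219 and 1.93 in LKO-labelled and 0.535 and 1.13 in f/f-labelled libraries, so that no difference was detectable at this level.

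Clock output genes held no called gene. All 14 were kept, 0 were called, 8 had an unadjusted p under 0.05, all lower, and 4 were separated, all lower, where 6.77% and 2.69% of all kept genes were lower by these measures. A positive difference was found for 3 members, Nfil3 (0.16), Cdkn1a (0.53) and Leo1 (0.07). The list's median was −0.29. Dbp, a transcription factor that drives output genes through D-boxes, was 28.9 and 36.8 FPKM on CD and 28.5 and 36.2 on HFD in LKO-labelled livers, against 45.0 and 40.5 on CD and 72.3 and 58.5 on HFD. The f/f-labelled HFD libraries were highest and the LKO-labelled HFD libraries were no higher than those on CD, with differences of −0.37 on CD and −1.01 on HFD (pooled −0.69, adjusted p = 0.0892). Dbp overlaps Sphk2, on the opposite strand and separated in the other direction (0.34), and the kit does not mark strand. Usp2, a deubiquitinase under clock control, was 9.64 to 14.3 FPKM against 17.1 to 22.8 (−0.76, adjusted p = 0.062). Wee1, a cell cycle kinase with E-boxes (−0.44, adjusted p = 0.158), and Nampt, the rate-limiting enzyme of NAD salvage (−0.28, adjusted p = 0.222), completed the separated set. Noct, a rhythmic phosphatase of NADPH, was lower within each diet at adjusted p = 0.0669 pooled and was not separated, with a diet difference of −0.99 and a genotype difference of −0.49. Within the list Hlf (−0.28 on CD and 0.06 on HFD), Tspan4 (0.19 and −0.62), Leo1 (−0.07 and 0.22) and Cdkn1a (−0.41 and 1.47) were on opposite sides of 0 on the diets.

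**Figure D4:**
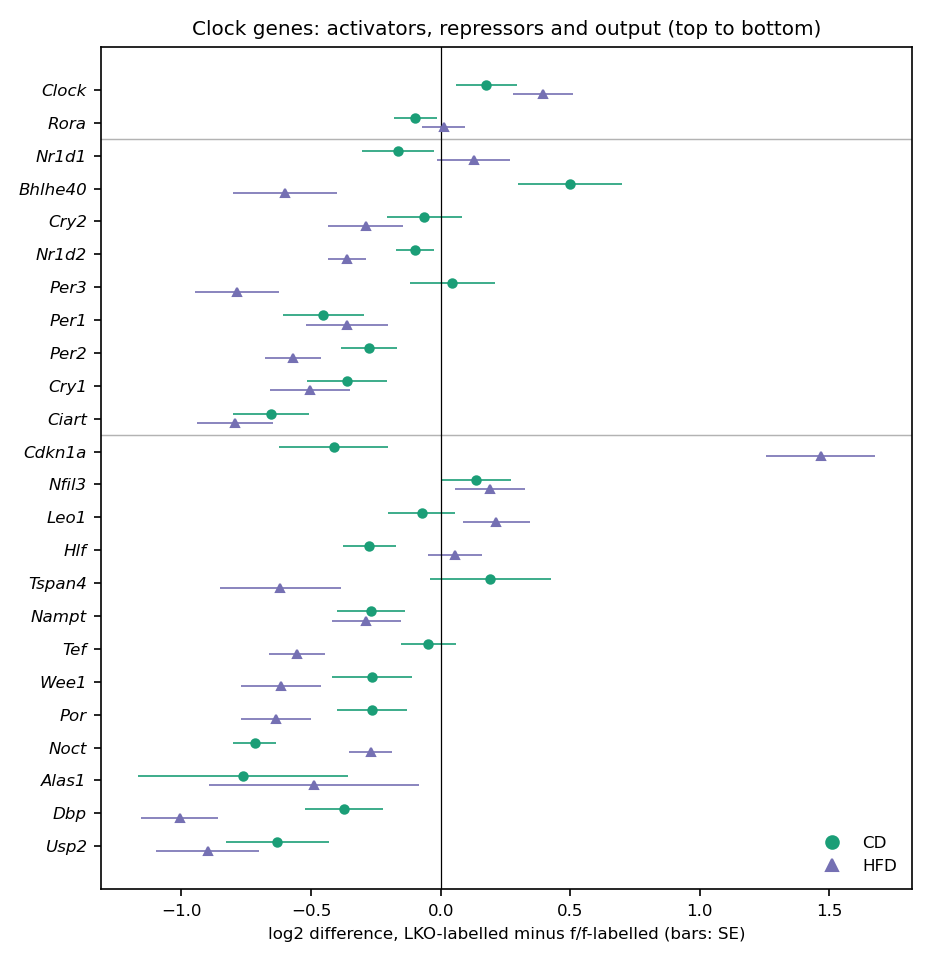
Log2 difference of LKO-labelled minus f/f-labelled livers on CD (circles) and HFD (triangles) for kept clock activators, repressors and output genes (rows, top to bottom), with bars for the SE. Ciart and Usp2 lie left of 0 on both diets, while Nr1d1, Bhlhe40, Per3, Cdkn1a, Hlf, Tspan4, Leo1 and Rora have points on opposite sides of 0.

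The RefSeq promoter of Ciart (chr3:95882179-95882478, GRCm38.p6, minus strand) is shown because Ciart is the called clock gene and its window holds 3 canonical E-boxes, CACGTG, in capitals. They lie at −116, −58 and −44 from the start.
Ciart: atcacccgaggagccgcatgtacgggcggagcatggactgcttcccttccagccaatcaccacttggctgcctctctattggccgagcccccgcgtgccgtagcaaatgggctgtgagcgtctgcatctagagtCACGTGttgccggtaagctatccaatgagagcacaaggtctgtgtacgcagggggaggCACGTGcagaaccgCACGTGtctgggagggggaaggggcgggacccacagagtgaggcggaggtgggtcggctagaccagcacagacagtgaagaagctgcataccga
At least 1 such E-box was found in 7.15% of all RefSeq windows, in 10.4% of the windows of kept genes, in 15.2% of those of separated lower genes and in 9.13% of those of separated higher genes. The D-box TTATGTAA was in 0.938% of all windows and in none of those of separated genes, which says only that these letters are not there. Promoters of Dbp, Cidec and Insig2 (3 windows) held no match to the 4 motifs searched.

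The remaining called genes that rose had a range of roles. Clstn3 encodes calsyntenin 3, and its locus also gives rise to a shorter protein of adipocyte lipid droplets that gene-level FPKM cannot tell from it. Clstn3 FPKM was 11.6 and 14.2 on CD and 13.6 and 15.5 on HFD in LKO-labelled livers, against 5.43 and 7.59 on CD and 5.35 and 5.86 on HFD. The LKO-labelled libraries were all clear of the f/f-labelled ones (1.08, SE 0.12, adjusted p = 0.0159), and diet made no called difference (adjusted p = 0.925). Phospho1, a phosphatase of phosphocholine and phosphoethanolamine, was 5.68 to 11.5 FPKM in LKO-labelled libraries and 2.93 to 5.17 in f/f-labelled libraries (0.80, adjusted p = 0.0459). Raet1d, a stress-induced ligand of the NKG2D receptor, rose by 0.78 on the log2 scale (adjusted p = 0.0459). St5, a regulator of small GTPases, rose by 0.73 (adjusted p = 0.0159), and its nearest libraries, 4.12 in LKO-labelled HFD and 4.04 in f/f-labelled CD, were close. Paqr9, of the progestin and adipoQ receptor family, was 98.5 to 148 FPKM against 72.6 to 89.2 (0.62, adjusted p = 0.0422). Gstm4, a glutathione S-transferase with near-identical relatives, rose by 0.59 (adjusted p = 0.0253), and reads of such relatives may have been split between them.

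Among those that rose by less, Prune1 and Galk1 had tight replicates, without which such small differences would not have passed the test. Prune1, a phosphodiesterase, was 8.01 to 8.41 FPKM in LKO-labelled libraries and 5.19 to 6.38 in f/f-labelled libraries (0.46, adjusted p = 0.0266). Galk1, galactokinase, was 24.4 to 26.2 against 18.1 to 20.5 FPKM (0.41, adjusted p = 0.024). The protein-coding locus Gm49342 (0.54, adjusted p = 0.0216) and ENSMUSG00000084354 (0.78, adjusted p = 0.0496), an identifier with no name in the annotation used, were also called.

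Besides Lpin1, Cyp7a1 and Ciart, 6 of the separated called genes fell. Cela1, a protease of the elastase family, was 6.18 and 4.86 FPKM on CD and 4.62 and 5.88 on HFD in LKO-labelled livers, against 9.85 and 10.8 on CD and 14.01 and 12.9 on HFD. The f/f-labelled libraries were all higher, and the difference was −0.997 (SE 0.11, adjusted p = 0.0159). Of 13 markers of pancreatic acinar cells, Cela1 among them, 10 were listed at 0 and the other 2 stayed below 1 FPKM in every library. Fkbp5, a cochaperone of the glucocorticoid receptor and a target of it, was 13.1 to 19.3 FPKM against 21.2 to 38.8 (−0.84, adjusted p = 0.0495). Rdh16f2, of the retinol dehydrogenase family, was 44.6 to 57.6 against 60.9 to 80.3 FPKM (−0.50, adjusted p = 0.024). Its neighbour Rdh16, 19909 bases away, was separated in the opposite direction at 35.7 to 49.7 against 20.9 to 32.4 FPKM (0.60, adjusted p = 0.132), and the neighbour on the other side, Sdr9c7, was separated and lower (−0.57, adjusted p = 0.0645). Etnk2, an ethanolamine kinase of phospholipid synthesis, fell by 0.39 (adjusted p = 0.0494). ENSMUSG00000023846, without a name in the annotation used, fell by 0.48 (adjusted p = 0.0459), and its genotypes were apart by 7.80 against 7.92 FPKM.

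Trim24, a coregulator of nuclear receptors, was 8.40 to 9.72 FPKM in LKO-labelled libraries and 10.9 to 13.8 in f/f-labelled libraries (−0.39, adjusted p = 0.0478). Of its 2 RefSeq promoter windows, the downstream one (chr6:37900237-37900536, GRCm38.p6, plus strand) is shown because it holds 3 copies of the hexamer, all on the opposite strand and in capitals, at −109, −77 and −44 from the start. None of these copies is preceded by T on its strand. FPKM does not say which start was used.
Trim24: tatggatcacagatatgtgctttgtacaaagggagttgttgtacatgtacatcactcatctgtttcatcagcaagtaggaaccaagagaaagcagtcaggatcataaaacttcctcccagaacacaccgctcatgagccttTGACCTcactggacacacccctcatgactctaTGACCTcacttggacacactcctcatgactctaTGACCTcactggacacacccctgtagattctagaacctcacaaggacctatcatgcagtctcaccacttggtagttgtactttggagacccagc

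Called genes whose genotypes overlapped across the diets numbered 9. In each of them the libraries were apart within both diets, as in 13% of all kept genes, and diet moved the gene as well. Besides Vnn1 and Crat, those that rose were Cyp3a59 (1.05, adjusted p = 0.0336), a cytochrome P450 with close relatives, Gpc1 (0.68, adjusted p = 0.0253), a glypican, Coq8a (0.45, adjusted p = 0.0497), of coenzyme Q synthesis, and Lrp5 (0.43, adjusted p = 0.0497), a Wnt coreceptor. Those that fell were Coq10b (−0.77, adjusted p = 0.0253), a coenzyme Q-binding protein, Fam47e (−0.65, adjusted p = 0.0496) and Cdip1 (−0.35, adjusted p = 0.0459). Coq10b shows the pattern, with 26.9 and 33.4 FPKM on CD and 13.0 and 17.0 on HFD in LKO-labelled livers, against 48.2 and 48.0 on CD and 26.5 and 31.9 on HFD. On either diet the LKO-labelled livers were lower, and the CD values of LKO-labelled livers reached the HFD values of f/f-labelled livers.

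Lpin1 differed more on CD (−1.91 against −1.23 on HFD), and Phospho1 (0.56 on CD and 1.03 on HFD), Fkbp5 (−0.62 and −1.05) and Fam47e (−0.46 and −0.84) more on HFD. Of the 33 called genes, 21 had the larger difference on HFD, and in 4 of them the effect on HFD differed from that on CD at an unadjusted p under 0.05 (Lpin1, Insig2, Cela1 and Phospho1), where 8.88% of all kept genes did. After adjustment none of all kept genes passed, and the smallest value among the 33 was 0.426. Tested on each diet alone, 7 genes were called on CD (0.0711%) and 5 on HFD (0.0508%). Lpin1 was in both sets. Insig2, Cela1 and Upp2 (adjusted p = 0.0335 on HFD) were in the HFD set. Phf11c (adjusted p = 0.0428 on CD) and Noct (adjusted p = 0.0449 on CD) were in the CD set. Diet itself changed 12.5% of kept genes, and 15 of the 33 genotype-called genes were among them, 10 in the direction of the genotype change and 5 against it. Some separated genes that did not pass the pooled test owed their pooled difference largely to 1 diet, as Hsd3b5 and Phf11c did. Hsd3b5, a male-biased steroid dehydrogenase, differed by −0.11 on CD and −1.36 on HFD (pooled −0.73, adjusted p = 0.229). Phf11c, a PHD finger gene, differed by −1.32 on CD and −0.04 on HFD (pooled −0.68, adjusted p = 0.253). Upp2 and Gmppb, which also did not pass the pooled test, were lower on both diets. Upp2, uridine phosphorylase, differed by −0.39 on CD and −0.99 on HFD (pooled −0.69, adjusted p = 0.0597). Gmppb, which makes GDP-mannose, differed by −0.48 on CD and −0.91 on HFD (pooled −0.69, adjusted p = 0.1235). It was 4.74 to 5.30 FPKM in LKO-labelled libraries and spread from 5.68 to 13.0 in f/f-labelled libraries. On CD alone the difference of Gmppb had an unadjusted p of 0.07 (limma).

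The lists of amino acid and glucose metabolism and of apolipoproteins held no called gene, where 0.335% of all kept genes were called. In amino acid and urea metabolism 11 of 38 kept genes had an unadjusted p under 0.05, all lower, and the median was −0.10, where 6.77% of all kept genes were lower at that threshold. Slc7a2, an arginine transporter, was separated and lower (−0.40, adjusted p = 0.109). In glucose metabolism 7 of 23 were lower and 1 higher by the same measure, with 7.06% of all kept genes higher and a list median of −0.11. Pfkfb1, which sets fructose 2,6-bisphosphate, was separated at 18.2 to 20.2 against 23.6 to 25.01 FPKM (−0.30, adjusted p = 0.052). Apoa4, an apolipoprotein of triglyceride-rich particles, was 123 to 242 FPKM against 65.7 to 87.7 (1.07, adjusted p = 0.0626), and overlaps Gm10680, which was separated in the same direction.

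None of the kept markers of Kupffer cells and macrophages (11), lymphocytes and neutrophils (6), sinusoidal endothelium (12), stellate cells and fibroblasts (8) or cholangiocytes (3) was called or separated. Over all kept genes 0.335% were called and 5.21% separated, so that finding none among so few markers says little. All 11 Kupffer markers had a positive difference, with a median of 0.09, against 4781 of 9839 and −0.004 over all kept genes. The summed FPKM of all 17 listed was 148.1 to 212.5 in LKO-labelled and 121.4 to 204.6 in f/f-labelled libraries. The 6 kept erythroid markers had a median of 0.76, with summed FPKM of 128 to 509 against 72.9 to 428. The differences of both lists were in the direction of the genes that rose, and their part in those results was not tested.

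**Figure D5:**
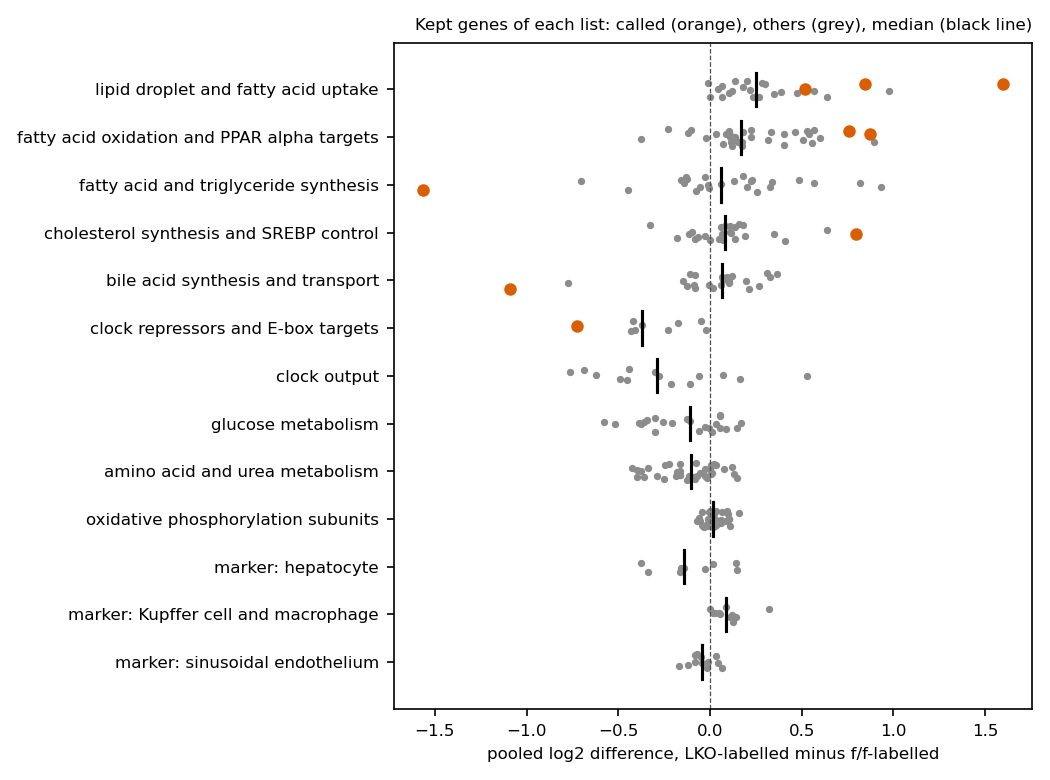
Pooled log2 difference of LKO-labelled minus f/f-labelled livers (x axis) for the kept genes of 13 lists (rows), with called genes in orange, the others in grey and the median as a black line. The medians of the lipid droplet and fatty acid oxidation lists lie at 0.25 and 0.17, those of clock repressors and clock output at −0.37 and −0.29.

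The 513 separated genes were of ordinary level, with a median FPKM of 8.46 against 8.53 over all kept genes and 21.9 for the called genes. Their median absolute difference was 0.233 on the log2 scale, against 0.0794 over all kept genes, and 34 higher and 20 lower genes passed 0.5. By deposited FPKM, without normalization, 410 of them were also separated. Around the FPKM limit, Lrfn3 lay just outside, separated at 2.15 to 3.21 FPKM in LKO-labelled libraries against 0.831 to 1.76, and Cidec just inside, with a lowest value of 1.41. Of 1795 genes above 1 FPKM in some but not all libraries, 57 were separated and 0 were called. This came from a separate fit of the 11634 genes above 1 FPKM in any library, in which 9 genes were called. Mogat1, an acyltransferase of triglyceride synthesis, was among the 57, at 1.146 to 1.80 against 0.397 to 1.02 FPKM (0.61, adjusted p = 0.173 in that fit).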

How the data were processed

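Polyadenylated RNA of 8 liver pools was sequenced. The authors trimmed adapters and low-quality reads with cutadapt (1.0 in the submitters' processing notes), aligned to GRCm38 with TopHat2 (2.0.7) and used Cufflinks for expression. Deposited values are gene-level FPKM, without counts. Strand was not marked by the kit. Mapped depth is not in the file, and no interval from counting is given. Columns were assigned to samples by title. Of 38283 identifiers, 36425 (95.15%) matched GENCODE M21. Genes with FPKM above 1 in all 8 libraries were put on log2(FPKM + 1), a scale that understates changes of low genes, quantile normalized and fitted in limma 3.58.1 (R 4.3.3) with additive diet and genotype, with eBayes trend set and two-sided p-values adjusted over all kept genes by Benjamini-Hochberg. There were 5 residual degrees of freedom, to which limma added 4.09. Effects on each diet and their difference came from a fit of 4 group means. The script was tested on simulated data. Separated means that all 4 LKO-labelled normalized values lie on the same side of the f/f-labelled values, with equal signs on both diets. Named genes were Rora, up to 15 separated genes per direction by size, called genes first, separated or called members of 32 lists (at most 8 each), all kept clock genes, and genes whose call changes with a setting where 5 or fewer do so. The comparison, its members and the gene lists were chosen with earlier results of these data known. Called genes whose genotypes overlap, and Lrfn3, Mogat1 and Sdr9c7, were added after their values were seen. Some genes that the rule picks are not reported here. Alternatives changed the normalization, pseudocount, FPKM filter, variance model, design and libraries used. Promoter sequences came from RefSeq (GRCm38.p6). Figures were drawn with matplotlib 3.10.9.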

Additional observations from a re-analysis of the deposited data

Results flagged for a closer look

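A library far from the others of its genotype label was looked for among the 4 libraries of each label, in 80 groups tested, and chance alone flags about 1 in 20 groups. Both that were flagged are among the called genes that fell. For Etnk2, f/f-labelled CD replicate 1 was the lowest of its 4 libraries, and its gap to the next was 0.892 of the range of the group. That library still lay above every LKO-labelled library. For Fkbp5, LKO-labelled HFD replicate 2 was the highest of its 4 libraries, and its gap was 0.860 of the range. At 19.3 FPKM it was the LKO-labelled library nearest to the f/f-labelled ones, the lowest of which was at 21.2 FPKM.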

How the results depend on the processing

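The number of genes called between the genotype labels, 33 in the report, was 28 without normalization, 43 with median centring and 30 with a pseudocount of 0.1. It was 9 when genes above 1 FPKM in any library were tested, 3 with no filter (none shared with the 33), 17 without the mean-variance trend, 2 (Cidec and Clstn3) without a diet term, 60 with array weights, 50 in a fit of 4 group means, 127 at an adjusted p under 0.1 and 1361 at an unadjusted p under 0.05. A filter chosen after seeing the data, which also asked for FPKM above 0 in all 8 libraries, gave 20. Leaving out each library in turn gave 1 to 33 calls, and the number of genes separated between genotypes was 755 to 890, with fewer libraries left to separate, and the cause of the other shifts was not tested. The log2 difference of Rora ran from −0.0717 to −0.0244.

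Replicate numbers are shared by the groups and do not pair the libraries (Pearson correlation of deviations −0.0555 to 0.0264). With a replicate block the count was 26, of which 21 were among the 33, and 27 with the block within diet. The block gave 22 genes on CD (7 in the report) and 9 on HFD (5 in the report). With the wider filter CD gave 2 genes and the difference between the diets 4 (0 in the report). At an unadjusted p under 0.05 there were 1308 genes on CD, 1045 on HFD, 874 for that difference and 2840 for diet.

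None of the 25 called genes named by rule changed direction in its 16 alternatives, and each lost its call in at least 1. Small differences changed sign when a library was left out, for Bhlhe40 (−0.301 to 0.0920) and Nr1d1 (−0.140 to 0.0425). With 2 libraries per group and no counts, differences near the spread of the pools were not detectable, and genes near 1 FPKM are the least certain.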

Other observations

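The genes below lie outside the lists' called members, were chosen after their values were seen, and did not pass the pooled test. Plin2, which coats lipid droplets, had FPKM of 306 and 456 on CD and 239.8 and 246 on HFD in LKO-labelled livers, against 213 and 272 on CD and 155 and 151 on HFD in f/f-labelled livers. It was higher within each diet, with a log2 difference of 0.64 and an adjusted p of 0.0632. Cd36, a fatty acid translocase, differed by 0.97 (adjusted p = 0.126), with the LKO-labelled HFD libraries at 63.7 and 60.1 FPKM and every other library at 15.3 to 29.3. Me1, which supplies NADPH for lipid synthesis, differed by 0.82, and Fabp2, a fatty acid-binding protein, by 0.48, both with an adjusted p of 0.0516. Cyp7b1, of the alternative bile acid pathway, differed by −0.78 (adjusted p = 0.152). Lgals1, which encodes galectin-1, was 11.9 to 22.8 FPKM in LKO-labelled and 5.73 to 10.5 in f/f-labelled libraries, with a difference of 1.09 (adjusted p = 0.0977).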
